A study of Mus musculus with 98 samples.

Results

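Thymic pericytes, called Pc here, were the cells that the deposited cell annotation of the nonepithelial thymic stroma (NETS) labels Pc. They numbered 4121 of 36208 labelled NETS cells, from 8 droplet libraries of live Ter119-CD45-EpCAM- cells sorted from wild-type (C57BL/6) thymi at E12.5 and E13.5 (1 library each) and at E16.5, P0 and W4, meaning postnatal week 4 (2 libraries each). The other mural label, vascular smooth muscle (VSM), held 2464 cells. A second droplet set came from newborn (P0) thymi, with 3 libraries of Tbx1+/-Crkl+/- mice and 3 of their wild-type littermates, sorted as Ter119-CD45- cells and fixed with RNA Protect before capture, in which 2647 of 21451 cells carry the label Pc. The mutants carry 1 Tbx1 allele replaced by lacZ and 1 lost Crkl allele in every cell, not in pericytes alone. Bulk RNA-seq libraries of sorted wild-type Ly51+gp38- cells, a gate that takes pericytes and smooth muscle together, numbered 6 at P0 and 6 at W4. Their titles carry the prefix TXCK or DFCK, both present at each age, and the labels do not say what these stand for. The cells of E12.5 and E13.5 were sorted from thymi pooled over 2 litters, and those of E16.5, P0 and W4 from 2 thymi at each age. No label ties a thymus to a library, so p-values measure the spread between libraries, which may be technical in part.

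Pericytes are the mural cells of capillaries and small venules. They lie inside the basement membrane that they share with the endothelium, are held there by PDGF-B acting on PDGFRB, and set vessel calibre and permeability through calcium entry, endothelin and angiotensin receptors and ATP-sensitive potassium (KATP) channels. KCNJ8 is the pore of the vascular KATP channel and ABCC9 its sulfonylurea receptor subunit, and RGS5 is a GTPase-activating protein that shortens signalling by G protein-coupled receptors in mural cells. In the thymus, perivascular cells line the vessels through which progenitors enter and mature thymocytes leave, and they are a source of chemokines, stem cell factor and enzymes that act on lysophospholipids such as sphingosine-1-phosphate.

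Both KATP channel genes lie on chromosome 6 of mouse genome build GRCm38.p6, Kcnj8 at chr6:142564837-142571614 and Abcc9 at chr6:142587862-142702766, with 16247 bases between them, and both are on the minus strand. Rgs5 lies at chr1:169655501-169695813. The 250 bases before the start that the RefSeq promoter table gives for Kcnj8 and Abcc9 are shown because both genes rose with age in Pc, with those of Colec11, the transcript most enriched in Pc. They span chr6:142571615-142571864, chr6:142702275-142702524 and chr12:28623331-28623580, all on the minus strand. The start used for Abcc9 lies inside the gene's annotated span, and so does its window. Capitals mark a match on either strand to the RBPJ motif GTGGGAA, the site of the Notch effector.
Kcnj8: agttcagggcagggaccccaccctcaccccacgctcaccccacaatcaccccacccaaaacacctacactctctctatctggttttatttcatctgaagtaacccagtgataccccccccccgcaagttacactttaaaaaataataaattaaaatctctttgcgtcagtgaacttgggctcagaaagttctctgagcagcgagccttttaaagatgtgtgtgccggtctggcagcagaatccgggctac
Abcc9: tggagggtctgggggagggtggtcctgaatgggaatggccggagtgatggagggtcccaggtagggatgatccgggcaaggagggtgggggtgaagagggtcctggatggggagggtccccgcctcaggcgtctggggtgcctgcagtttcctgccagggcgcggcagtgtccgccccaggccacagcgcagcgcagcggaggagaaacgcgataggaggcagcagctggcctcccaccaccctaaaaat
Colec11: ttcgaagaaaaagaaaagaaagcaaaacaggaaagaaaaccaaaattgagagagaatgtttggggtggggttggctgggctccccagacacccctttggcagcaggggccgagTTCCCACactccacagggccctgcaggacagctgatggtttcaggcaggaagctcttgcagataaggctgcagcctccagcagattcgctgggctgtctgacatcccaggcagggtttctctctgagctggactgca
The Colec11 window held 1 such match. No RBPJ match lay in the windows of Kcnj8 and Abcc9, and none of the windows held a palindromic EBF motif, the CArG box or the MEF2 motif CTAAAAATA. The Abcc9 window ends with the MEF2 motif less its last letter, and matches that cross the end of a window were not searched. Of the upstream windows of all 32851 RefSeq promoters, 5.42% held the RBPJ letters, 0.779% the EBF letters, 1.47% a CArG box and 0.469% the MEF2 letters. The GC content was 49.2% in the Kcnj8 window, 66.8% in that of Abcc9 and 54.4% in that of Colec11.

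The age series held 28583048 to 93040640 UMIs per library and 1184337 to 10784014 UMIs in Pc. Depth per cell fell with age, from a median of 17597 UMIs per Pc at E12.5 to 4941.5 in W4 replicate 2. P0 replicate 1 stood apart: its Pc held 3202 CPM of Acta2 (UMIs of a gene scaled to 1000000 UMIs of the label) against 1470 in P0 replicate 2, and its Col2a1 level, 157 CPM, was far above the 16.4 CPM of its pair. Counts of the replicates differed by more than sampling noise, with a chi-square per degree of freedom of 1.59 at E16.5, 6.51 at P0 and 2.93 at W4. The summed level of 6 erythroid genes in Pc spread from 171 to 2251 CPM at P0 and from 596 to 3902 CPM at W4. Any 2 libraries shared at most 14 cell barcodes, and 3 of the shared barcodes were labelled Pc in both.

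The label was set beside Kcnj8, Rgs5 and Abcc9. The paper identified its pericytes by Kcnj8, so the level of this gene is a description and no check of the label. Levels are given as CPM of the UMIs summed per library, in the order E12.5, E13.5, both E16.5, both P0 and both W4 libraries. They come from 3' tags, so they compare libraries and labels but not genes. Kcnj8 was found at 146.1, 266, 841, 825, 1053, 1230, 1873 and 1772 CPM in Pc. In VSM it was at 69.8, 166.7, 319, 295, 90.8, 143.1, 61.4 and 51.5 CPM. Pc stood above VSM in 8 of 8 libraries, and the distance was widest at W4. Abcc9 followed the same course in Pc, at 49.8, 140.0, 350.4, 345.9, 467.8, 525.6, 893.2 and 778.5 CPM, and was above VSM in 8 of 8 libraries, by the least at E12.5, where VSM held 48.2 CPM. Rgs5 did not separate the mural labels in this way. It reached 854, 300.2, 1424, 1405, 3209, 3214, 7039 and 7202 CPM in Pc and was lower there than in VSM in 8 of 8 libraries, with 13723 and 12486 CPM in VSM at W4.

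**Figure D1:**
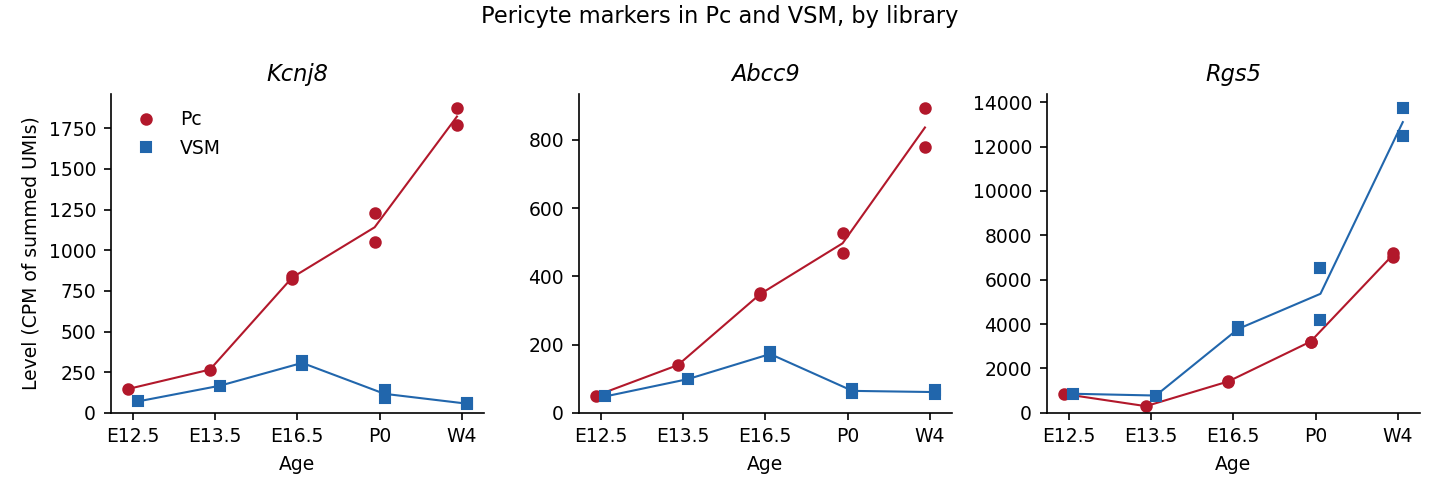
Levels of Kcnj8, Abcc9 and Rgs5 (CPM of summed UMIs, linear axes from 0) by age, with 1 point per library for Pc (red circles) and VSM (blue squares) and lines through the mean of each age. Pc lie above VSM for Kcnj8 and Abcc9 in 8 of 8 libraries and below VSM for Rgs5 in 8 of 8.

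Among the 19 labels, the mean Kcnj8 level at W4 was 1823 ± 71.6 CPM (SD, n = 2 libraries) in Pc, followed by the proliferating label Pr at 247 ± 87.8 CPM and the medullary fibroblasts MedFb2a at 226 ± 59.8 CPM, which do not differ beyond their spread. At E13.5 the order was other: MedFb2a held 306 CPM of Kcnj8 and Pc 266 CPM. For Abcc9, Pc held 836 ± 81.1 CPM at W4 and MedFb2a 220.9 ± 31.01 CPM. Kcnj8 was detected in 96.9% of Pc and in 91.2% of MedFb2a, and in 78.8% and 57.5% once each cell was thinned to 2000 UMIs. In neural crest cells (NC), which should lack Kcnj8, the thinned share was 1.23%. These shares pool all libraries, and the paper found neural crest cells largely absent after E16.5. The share that free RNA can give at later ages was therefore not measured. Kcnj8 and Abcc9 thus set Pc above VSM and Rgs5 did not, and MedFb2a also held Kcnj8. The summed level of the 3 markers was 2615 and 2576 CPM in Pc and 4333 and 4190 CPM in VSM at E16.5, and 9805 and 9752 CPM in Pc and 13851 and 12593 CPM in VSM at W4. It was higher in Pc at E12.5 (1049.5 against 977 CPM) and in P0 replicate 1 (4729.7 against 4337 CPM), and lower in P0 replicate 2 (4969 against 6757 CPM) and at E13.5 (706 against 1045 CPM). Means were then taken over the libraries with at least 20 cells of a label, so labels can cover different ages. By these means, 271 of 3395 genes at 50 CPM or more in Pc were highest there, and 8 were at 2 times the next label or more. Among these were Colec11, a collectin of the lectin complement pathway, Agtr1a, an angiotensin II receptor, Steap4, a metalloreductase, the fatty acid hydroxylase Cyp4b1, the GTPase-activating protein Stard8, Kcnj8 and Sept4. Colec11 averaged 354 CPM in Pc and 101.3 CPM in MedFb2a, the next label, and Agtr1a averaged 88.2 CPM against 26.1 CPM in Pr. Steap4 averaged 470 CPM against 164 CPM in MedFb1b. Pc ranked first in 4 of 8 libraries for Cyp4b1 and Stard8, in 6 for Colec11, Agtr1a and Steap4 and in 7 for Kcnj8 and Sept4. As Pc were labelled from clusters of these same cells, no test applies to these differences between labels.

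At E12.5 the label rested on little. Of the 65 Pc there, 61 belonged to cluster 14 of the authors' clustering. A UMI of Pecam1, Cdh5, Pdgfra or Ptprc was found in 67.7% of these Pc. The share was 37.4% at E13.5, 12.9 to 18.6% from E16.5 on and 39.0% in VSM at E12.5. Cdh5 and Ptprc had no UMI in Pc at E12.5. The summed endothelial markers were at 30.4 CPM there and at 110.7 to 192.2 CPM from E16.5 on. The summed fibroblast markers were at 88.7 CPM there and at 417 to 928 CPM from E16.5 on. Steap4 and Higd1b had no UMI in these 65 cells, and Colec11 was at 21.1 CPM. The part of depth in this was not tested.

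Pc came from clusters 2 and 14 of the authors, which differed in contractile genes. Cluster 2 held 73.4 to 80.7% of Pc from E16.5 on. Over the 7 libraries from E13.5 on, Acta2, smooth muscle actin, averaged 5044 CPM in cluster 14 and 195 CPM in cluster 2, Tagln 3554 and 236 CPM, and Actg2 539 and 5.5 CPM. Cluster 14 also held more of the interferon-induced Ifit1 (102.5 against 5.3 CPM) and Cxcl9 (155.7 against 4.7 CPM). Cluster 2 held more Kcnj8 (1347 against 566 CPM), Abcc9 (599 against 254 CPM), Agtr1a (124.5 against 37.9 CPM), the proteoglycan Cspg4 or NG2 (126.6 against 37.5 CPM) and the endothelin receptor Ednrb (130 against 34.9 CPM), each in 7 of 7 libraries. Rgs5 was higher in cluster 2 in 4 of 7 libraries. Colec11 was higher in cluster 14, at 643 against 312 CPM. These genes shaped the clusters, so the values are a description.

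The comparison of ages asked how the share and the transcriptome of Pc moved through organogenesis. Pc were few before E16.5. They made up 3.25% of NETS cells at E12.5 and 2.62% at E13.5. At E16.5 they were 15.2% and 14.6%, at P0 9.30% and 15.1%, and at W4 17.2% and 10.3%, where the libraries of an age lay as far apart as the ages. The share differed over the 5 ages (edgeR quasi-likelihood test with Benjamini-Hochberg adjustment over 19 labels, adjusted p = 0.00857), but the test did not pass between W4 and P0 (edgeR adjusted p = 0.791) or P0 and E16.5 (edgeR adjusted p = 0.554). Without E16.5 replicate 1 the edgeR adjusted p over ages was 0.0760, and without E16.5 replicate 2 it was 0.0744. Per VSM cell there were 2.89 and 3.06 Pc at E16.5, 0.971 and 1.39 at P0 and 1.45 and 1.03 at W4. Per endothelial cell there were 1.37 and 1.21 at E16.5, 1.54 and 2.96 at P0 and 1.04 and 0.758 at W4.

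**Figure D2:**
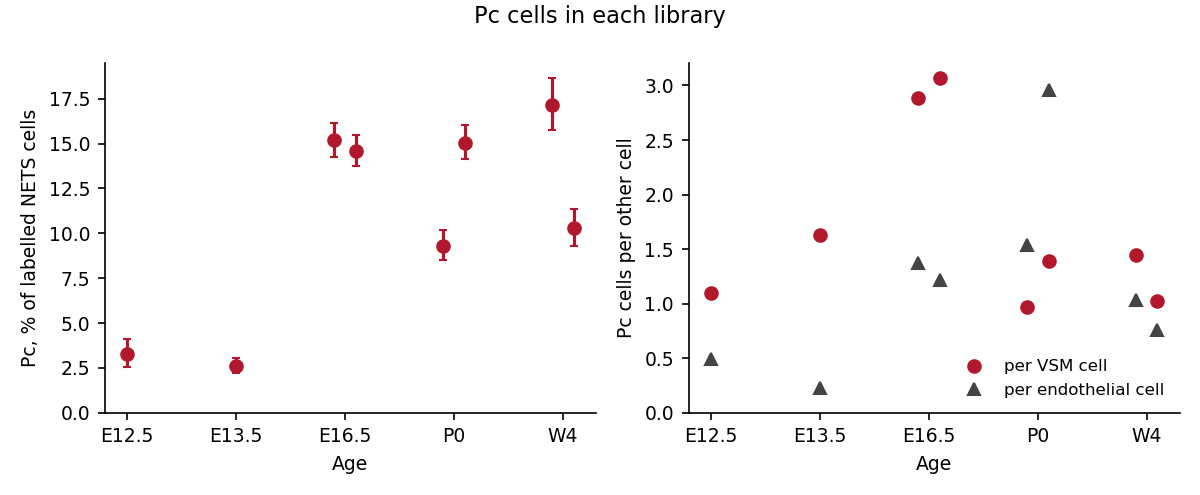
Left, Pc as a percent of labelled NETS cells in each library, with 95% Wilson intervals that cover counting error only. Right, Pc per VSM cell (red circles) and per endothelial cell (grey triangles), 1 point per library. Both libraries before E16.5 sit near 3%, and from E16.5 on the libraries of P0 and of W4 differ from their pair.

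Gene levels in Pc moved with age over a large part of the transcriptome. Of 12556 genes tested, 8536 (68%) passed an adjusted p of 0.05 over the 5 ages (edgeR quasi-likelihood F test), where E12.5 and E13.5 had 1 library each. In the cells of cluster 14 alone 4970 of 10849 genes passed, and with DESeq2 over all Pc 5671 of 12556. Between P0 and W4, 4132 genes (32.9%) passed, 1909 higher at W4 (15.2% of those tested) and 2223 lower (17.7%), which are the shares to set beside each count of list members from P0 to W4. Between E16.5 and P0, 2389 genes passed (19%), with 1213 higher at P0 (9.66%) and 1176 lower (9.37%). Of 21 genes of a pericyte identity list, all passed over ages, 13 rose from P0 to W4 and 3 fell, with a median log2 fold change of 0.48 beside 8.084e-05 over all genes. In VSM 10 of the 21 rose and 2 fell, with a median of 0.47, beside 10.3% and 12.3% of all genes there. The change differed between Pc and VSM for 6 of the 21, with 3 higher in Pc and 3 lower, beside 1.43% and 2.99% of all genes. In Pc, Kcnj8 rose by a log2 fold change of 0.48 (SE 0.09, edgeR adjusted p = 0.00213), Abcc9 by 0.56 (SE 0.10, edgeR adjusted p = 0.00113) and Rgs5 by 0.96 (SE 0.07, edgeR adjusted p = 1.6e-06) from P0 to W4. In the cells of cluster 14 alone the log2 fold change of Kcnj8 was 0.19 (edgeR adjusted p = 0.596) and that of Abcc9 0.45 (edgeR adjusted p = 0.0858). From E16.5 to P0, Rgs5 rose by a log2 fold change of 0.997 (SE 0.07), and Kcnj8 did not pass (log2 fold change 0.27, edgeR adjusted p = 0.0666). Kcnj8 did pass with no filter on low counts (0.25, edgeR adjusted p = 0.0474) and in the cells of cluster 2 alone (0.47, edgeR adjusted p = 0.000295). Without P0 replicate 1 its log2 fold change was 0.38. In the cells of cluster 14 alone the value was -0.29 (edgeR adjusted p = 0.489).

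Ephx3, Prkg2, Lepr and Plxdc1 were among the 10 genes with the largest rises from P0 to W4. Ephx3, an epoxide hydrolase, was at 13.9 and 12.01 CPM at P0 and at 349.9 and 343.4 CPM at W4 (log2 fold change 4.57, SE 0.11, edgeR adjusted p = 3.79e-10). Prkg2, a cGMP-dependent kinase, went from 2.77 and 1.74 CPM to 69.3 and 69.4 CPM (log2 fold change 4.82, SE 0.24). The leptin receptor Lepr went from 1.94 and 2.05 CPM to 54.1 and 52.1 CPM, and the transmembrane protein Plxdc1 from 3.88 and 3.16 CPM to 88.7 and 83.0 CPM. Each W4 library lay above both P0 libraries in all of these, which were picked by their rise in the same libraries. C3, the central complement component, reached 130.1 and 274 CPM at W4 from 6.10 and 11.1 CPM at P0 (log2 fold change 4.25, or 3.63 without W4 replicate 2). Ccl19, a chemokine that draws CCR7+ thymocytes, reached 279 and 225 CPM from 25.8 and 16.1 CPM. The pacemaker channel Hcn2, the interleukin-2 receptor subunit Il2ra, AW112010 and the kinase Dapk2 completed the 10, with log2 fold changes of 3.82, 3.62, 3.55 and 3.33. All 10 passed in each fit that left out 1 library of E16.5, P0 or W4.

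Imprinted growth genes were among the largest falls. Mest fell from 99.1 and 92.7 CPM to 1.69 and 1.09 CPM (log2 fold change -6.23, SE 0.21, edgeR adjusted p = 4.21e-09), Dlk1, a Notch-related inhibitor of differentiation, from 1185 and 1303 CPM to 42.3 and 61.8 CPM, and the noncoding RNA H19 from 300.2 and 330.0 CPM to 15.6 and 18.99 CPM. Of 13 tested genes of an imprinted and oncofetal list, 12 fell and none rose, with a median log2 fold change of -3.59. They had fallen before: from E16.5 to P0 9 fell and 1 rose, and Mest had been at 898 CPM at E12.5 and 1741 CPM at E13.5. The fibrillin Fbn2 fell from 282 and 389 CPM to 14.4 and 22.8 CPM. Egr2, Cxcl2 and Sele, genes that respond to acute stimulation, had log2 fold changes of -5.42, -5.58 and -5.15, with Ntng1, a netrin family protein, at -4.99 and the smooth muscle actin Actg2 at -4.23. Cxcl2 and Sele had no UMI in W4 replicate 2, so their fitted values depend on it: without W4 replicate 2 they were -4.77 and -4.33, and without W4 replicate 1 they were -11.19 and -11.34, which are no bounds. Egr2 was at -4.64 without W4 replicate 1 and -6.57 without W4 replicate 2, Ntng1 at -4.22 without P0 replicate 2, and Actg2 at -3.04 without P0 replicate 1 and -4.90 without P0 replicate 2. Of 12 dissociation stress genes, 10 fell and 2 rose, and their summed level was 16644 to 17475 CPM at P0 and 5878 to 6698 CPM at W4. Fos itself was at 4832 and 4353 CPM at P0 and at 1208 and 1034 CPM at W4. The part of tissue dissociation in Egr2, Cxcl2 and Sele was not tested. Col2a1, a cartilage collagen, had no UMI at W4 among 4209831 in Pc, which makes it at least 121.7-fold lower than its P0 mean if 3 counts over both libraries are allowed. That mean rested on P0 replicate 1: the same bound was 220.4-fold from P0 replicate 1 and 23.1-fold from P0 replicate 2, and the fall did not pass without W4 replicate 1 (edgeR adjusted p = 0.103) or W4 replicate 2 (edgeR adjusted p = 0.069).

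**Figure D3:**
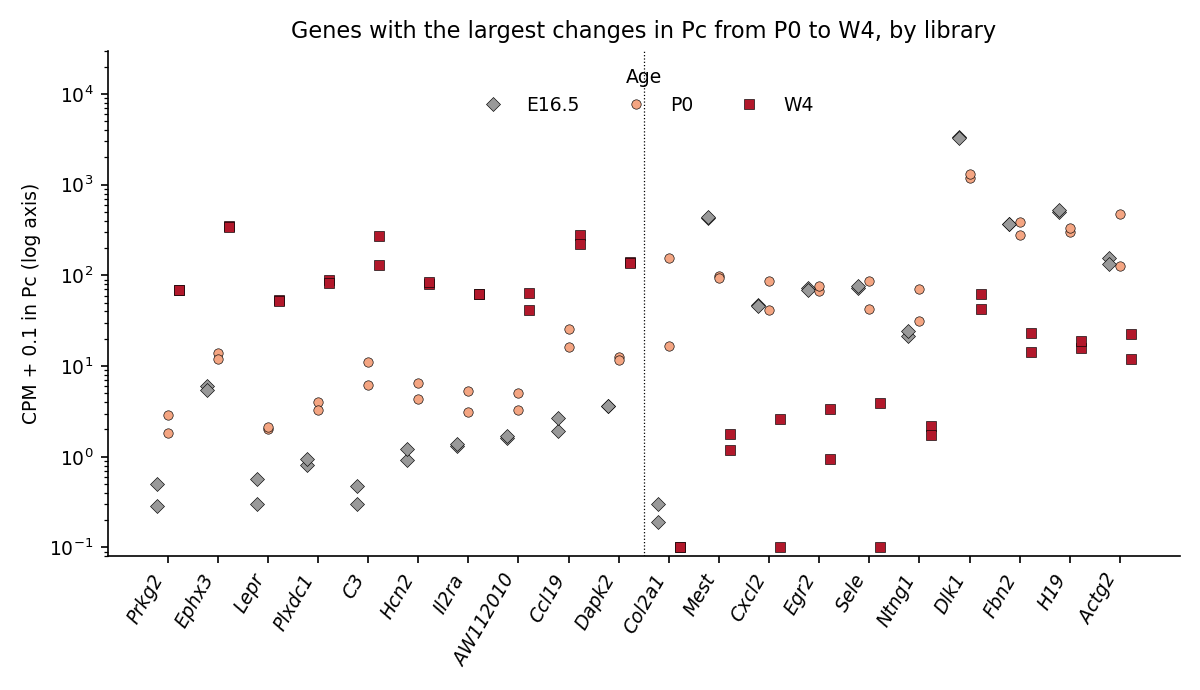
CPM + 0.1 in Pc on a log axis for the 10 genes with the largest rises and, right of the dotted line, the 10 with the largest falls from P0 to W4, 1 point per library at E16.5 (grey diamonds), P0 (orange circles) and W4 (red squares). The genes were picked by this change, and the W4 points lie above both P0 points for the first 10 genes and below them for the others. Points at 0.1 are libraries with no UMI.

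Most tested potassium and calcium channel genes rose. Of 11 tested potassium and calcium channel genes, 7 rose from P0 to W4 and 2 fell, with a median log2 fold change of 0.67. Trpc6, a diacylglycerol-gated calcium channel, was at 5.17 and 4.08 CPM at E16.5, 25.8 and 26.4 CPM at P0 and 111.6 and 132.4 CPM at W4, without overlap between ages (log2 fold change W4 over P0 2.02, SE 0.13). The calcium-activated chloride channel Ano1 went from 95.2 and 103.3 CPM to 233 and 218 CPM (log2 fold change 0.99, SE 0.09). The L-type channel subunit Cacna1c rose by a log2 fold change of 1.32 (SE 0.18). The background potassium channel Kcnk3 and the T-type subunit Cacna1h fell by 1.35 and 1.61 on the log2 scale.

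Several receptors for vasoconstrictors rose as well. Of 13 vasoactive receptor and RGS genes, 7 rose and 3 fell from P0 to W4. The endothelin receptor Ednra went from 192.6 and 176.0 CPM to 417.5 and 337.5 CPM, and Ednrb from 88.2 and 103.8 CPM to 200.3 and 218.6 CPM. In the cells of cluster 14 alone the log2 fold change of Ednrb was 0.18 (edgeR adjusted p = 0.659), beside 0.92 over all Pc. Agtr1a went from 68.3 and 99.2 CPM to 183.4 and 206.7 CPM (log2 fold change 0.998, SE 0.15). The regulators of G protein signalling did not move together: Rgs4 rose by 1.90 on the log2 scale (SE 0.09) and Rgs16 fell by 2.04 (SE 0.10). Of 9 genes of nitric oxide and cGMP signalling, which relaxes mural cells, 1 rose, the soluble guanylyl cyclase subunit Gucy1b1 (log2 fold change 0.27, SE 0.09), and 2 fell, with Npr2, a natriuretic peptide receptor, the larger at -2.64. These shares are near the 15.2% and 17.7% of all genes that rose and fell. Prkg2, which rose, is not on this list.

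Over all Pc, contractile and interstitial matrix genes more often fell. Cluster 14, where Acta2 was higher, held 26.6 and 25.5% of Pc at P0 and 20.2 and 19.3% at W4. The part of this mix was not tested. Of 14 contractile genes, 6 fell and 2 rose over all Pc, and the list was not counted within the clusters. Acta2 was at 3202 and 1470 CPM at P0 and 1064 and 1264 CPM at W4 (log2 fold change -1.19, SE 0.25, edgeR adjusted p = 0.00365). The value was -0.54 without P0 replicate 1 and -1.64 without P0 replicate 2. The call was lost without W4 replicate 1 (edgeR adjusted p = 0.0823) and with DESeq2 (adjusted p = 0.0554), and in the cells of cluster 2 alone the value was 0.25 (edgeR adjusted p = 0.393). Synpo2, an actin-bundling protein, rose from 51.3 and 49.8 CPM to 325 and 304.4 CPM, and the intermediate filament Des rose by 0.73. Of 16 interstitial matrix genes 10 fell and 1 rose, with a median log2 fold change of -0.77. Fibronectin (Fn1) fell from 272 and 265 CPM to 45.2 and 60.2 CPM, and periostin (Postn) from 1399 and 1484 CPM to 654 and 574 CPM. The basement membrane list was mixed: of 16 genes, 5 rose and 4 fell. The perlecan gene Hspg2 rose by 1.13 (SE 0.13), the laminin chain Lamb2 by 1.27, and Col18a1 fell by 3.05 on the log2 scale (SE 0.20). In the cells of cluster 14 alone Hspg2 had a log2 fold change of 0.26 (edgeR adjusted p = 0.605). The 5 smooth muscle markers, which summed to 1906 and 4226 CPM at P0 and to 1452 to 1566 CPM at W4, moved with the contractile genes, and their part was not tested.

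Several ligands for thymocytes and their progenitors rose. Of 18 genes of a thymocyte niche list, 8 rose and 3 fell, with a median log2 fold change of 0.86. In VSM 8 of 17 tested rose and 1 fell, with a median of 1.05. Cxcl12, a chemokine that retains progenitors, was lowest at E16.5 over all Pc: it was at 738, 326.2, 83.7, 80.2, 215.0, 224.8, 859.9 and 773.1 CPM in the order of ages (W4 over P0 log2 fold change 1.70, SE 0.09, edgeR adjusted p = 1.33e-07). Cluster 14 held 93.8% of Pc at E12.5, 43.5% at E13.5 and 21.5% in E16.5 replicate 1, and the part of this mix was not tested. In cluster 2 Cxcl12 was at 73.6 CPM at E13.5 and 53.3 and 47.3 CPM at E16.5, and in cluster 14 at 674 CPM and at 198.5 and 195.1 CPM. The W4 over P0 log2 fold change was 2.05 in cluster 2 and 1.06 in cluster 14. Kitl, stem cell factor, stayed at 22.2 CPM or less until P0 and reached 93.8 and 104.2 CPM at W4 (log2 fold change 2.12, SE 0.13). Il34, a ligand of the CSF1 receptor, went from 187.3 and 217 CPM to 441 and 468 CPM. Ccl21a and Ccl25, chemokines made mainly by thymic epithelium, rose by 3.59 and 1.35 on the log2 scale. Over the same ages the summed level of 8 epithelial markers in Pc, Ccl25 among them, went from 30.6 to 49.7 CPM at P0 to 124.2 to 147.5 CPM at W4, with 4 of 4 tested markers up. Ccl25 itself was at 29.8 and 21.0 CPM in cluster 2 at P0 and at 80.0 and 62.1 CPM at W4. The sum is therefore no separate measure beside Ccl25. The summed thymocyte markers went from 45.8 to 64.9 CPM to 106 to 208 CPM, with 6 of 9 tested up. The part of RNA from these cells was not tested.

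Enpp2 and Spns2, genes of lysophospholipid signalling, rose. Enpp2, or autotaxin, makes lysophosphatidic acid and was listed at 0 UMIs at E12.5 and at 4.94, 12.98, 16.6, 97.95, 120.1, 442 and 458 CPM thereafter (W4 over P0 log2 fold change 1.84, SE 0.12). In VSM the log2 fold change of Enpp2 was 2.61. Spns2, the exporter of sphingosine-1-phosphate, was at 16.4 and 19.6 CPM at P0 and at 104.8 and 105.8 CPM at W4 (log2 fold change 2.33, SE 0.13). Of 10 genes of the sphingosine-1-phosphate axis, 3 rose, Spns2, the kinase Sphk2 (0.75) and the phosphatase Plpp3 (0.55), and 2 receptors fell, S1pr1 (-1.47) and S1pr3 (-0.82).

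The lists for signals to and from the endothelium held genes that rose and genes that fell, beside the 15.2% and 17.7% of all genes. Of 9 VEGF and angiopoietin genes, 4 rose and 2 fell. Vegfa, the main endothelial growth factor, was at 13.04 and 15.01 CPM at P0 and at 55.8 and 36.9 CPM at W4 (log2 fold change 1.53, SE 0.19), Angpt2 rose by 1.27 and Angpt1 fell by 0.76. Pdgfrb rose by 0.60 (SE 0.09), from 509 and 563 CPM to 936 and 913 CPM, and of 6 PDGF genes 2 rose and 1 fell. Of 11 Notch genes 3 rose and 3 fell: the receptor Notch3 rose by 0.69 (SE 0.09), its target Heyl by 0.98 (SE 0.11) and the ligand Jag1 by 0.72, and Hes1, Nrarp and Rbpj fell by 0.91, 0.65 and 0.32. In the cells of cluster 14 alone Heyl had a log2 fold change of 0.59 (edgeR adjusted p = 0.0598). Of 18 TGF-beta and BMP genes 6 rose and 5 fell. Of 23 mural transcription factors 8 rose and 5 fell, with Meox2, at 95.7 and 105.2 CPM at P0 and 296 and 312.5 CPM at W4, among those that rose. Kdr, a VEGF receptor that is itself an endothelial marker, rose by 1.79, as did Pecam1 (1.55) and Cdh5 (1.90), and 3 of 7 tested endothelial markers were up. Their summed level was 110.7 to 116.1 CPM at P0 and 137.3 to 145.9 CPM at W4. Emcn, which is in this sum, was at 104.2 and 115.1 CPM in cluster 2 at P0 and 113.5 and 110.2 CPM at W4. The sum therefore says little of Kdr, Pecam1 and Cdh5.

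The class I heavy chain genes H2-K1 and H2-D1 and most complement genes rose. H2-K1 was at 0.844, 0.449, 18.1, 19.4, 99.1, 70.1, 725 and 790 CPM over the libraries (W4 over P0 log2 fold change 2.99, SE 0.14), and H2-D1 rose by 2.24. Of 15 interferon and class I genes 7 rose and 2 fell, while of 9 complement genes 7 rose and 2 fell. In VSM 8 of 15 interferon and class I genes rose and 2 fell, and 7 of 9 complement genes rose and 1 fell. The complement genes that fell in Pc were both collectins, Colec11, from 552 and 693 CPM to 364 and 348 CPM, and Colec12 (-1.01). In cluster 14 alone Colec11 had a log2 fold change of 0.08 (edgeR adjusted p = 0.791). Of 12 cell cycle genes 3 fell from P0 to W4, near the 17.7% of all genes, and 10 had fallen from E16.5 to P0, beside 9.37% of all genes. Of 15 respiratory chain and hypoxia genes 1 rose, Epas1, and 5 fell, and of 10 glucocorticoid response genes 1 rose and 6 fell, with Mt2, a metallothionein, at 57.2 and 54.3 CPM at P0 and 5.07 and 3.798 CPM at W4.

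Of the remaining marker lists, 3 of 6 fibroblast genes rose and 2 fell, 1 of 2 tested neural crest and glia genes rose, and none of 5 tested erythroid genes and of 1 tested mesothelial gene passed. No myeloid marker was abundant enough to be tested, and Csf1r, Adgre1 and C1qa had no UMI in Pc at W4.

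Fewer genes changed from E16.5 to P0. Enpp2 rose by a log2 fold change of 2.70 (SE 0.14, edgeR adjusted p = 1.05e-06), and Angptl4, a lipase inhibitor, from 5.38 and 3.89 CPM to 91.01 and 68.7 CPM (log2 fold change 3.90, SE 0.18). Angptl4 was at 16.48 and 13.6 CPM again at W4. Mest fell by 2.37 and Dlk1 by 1.60, and Cpa1, Oxct1 and Gdf10, the other large falls, by 1.67, 1.39 and 1.34 on the log2 scale. Steap4 rose by 1.18 (SE 0.09), Trpc6 by 2.31 (SE 0.17), Cxcl12 by 1.24 (SE 0.10) and Pdgfrb by 0.55 (SE 0.09), with 0.18 for Pdgfrb in cluster 14 alone (edgeR adjusted p = 0.592). Col2a1, Col14a1 and Cnn1, the other large rises, had fitted log2 fold changes of 8.70, 3.04 and 2.56, and each was highest in P0 replicate 1, with 157, 119.6 and 123.8 CPM against 16.4, 36.8 and 22.9 CPM in its pair. Without P0 replicate 1 the values for Col2a1, Col14a1 and Cnn1 were 6.43, 2.05 and 1.005, and without P0 replicate 2 they were 9.65, 3.73 and 3.42. Cnn1 did not pass without E16.5 replicate 1 (edgeR adjusted p = 0.0508) or with DESeq2 (adjusted p = 0.0656). In the cells of cluster 2 alone Col14a1 had a log2 fold change of 1.09 (edgeR adjusted p = 0.0687) and Cnn1 one of 2.28 (edgeR adjusted p = 0.107). Abcc9 passed at a log2 fold change of 0.33 (edgeR adjusted p = 0.0377), but not without E16.5 replicate 1, E16.5 replicate 2 or P0 replicate 2 (edgeR adjusted p = 0.223, 0.235 and 0.0896) or with DESeq2 (adjusted p = 0.0557), and its value in cluster 14 alone was -0.14 (edgeR adjusted p = 0.708). Of the lists, 11 of 21 pericyte identity genes rose and 3 fell, 9 of 13 vasoactive genes rose and 1 fell, and 8 of 16 interstitial matrix genes rose and 1 fell, beside the 9.66% and 9.37% of all genes.

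The next question was which changes differed between the mural labels. In VSM 2846 of 12575 genes passed from P0 to W4 (22.6%). The difference of the changes, Pc minus VSM, passed for 546 of 12339 genes (4.42%), with 177 higher in Pc (1.43%) and 369 lower (2.99%). Kcnj8 was among them: it rose in Pc and fell in VSM by 1.12 on the log2 scale (SE 0.21), a difference of 1.58 (SE 0.14, edgeR adjusted p = 0.000429). The fall in VSM did not pass without W4 replicate 2 (edgeR adjusted p = 0.073), while the difference passed without any 1 library. For Abcc9 the difference was 0.70 (SE 0.12, edgeR adjusted p = 0.00838), and for Rgs5, which rose in both labels, it was -0.30 (SE 0.15, edgeR adjusted p = 0.358), or -0.60 without P0 replicate 2 (edgeR adjusted p = 0.000188). With no filter on low counts the difference for Rgs5 also passed (edgeR adjusted p = 4.16e-05). Both labels come from clusters of these same cells. For genes that set them apart, such as Kcnj8, Abcc9 and contractile genes, the part of the labelling in the differences was not tested.

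Of 18 genes of the thymocyte niche list the difference passed for 2, Cxcl12 and Kitl, and of 9 VEGF and angiopoietin genes for 2, Vegfa and Angpt2, all higher in Pc. Vegfa in VSM went from 18.2 and 17.2 CPM to 8.97 and 7.70 CPM (edgeR adjusted p = 0.0536 without W4 replicate 2, and DESeq2 adjusted p = 0.184), and its difference was 2.65 (SE 0.26, edgeR adjusted p = 0.00062). Cxcl12 was level in VSM at 217 and 213 CPM at P0 and 221 and 195 CPM at W4, with a difference of 1.81 (SE 0.11, edgeR adjusted p = 3.51e-05). Kitl had a difference of 1.60 (SE 0.26, and 0.998 without P0 replicate 2), although its W4 level stayed higher in VSM, at 339 and 306 CPM. Enpep, the aminopeptidase that carries the Ly51 epitope, rose by 2.79 in Pc and had a log2 fold change of 0.97 in VSM (edgeR adjusted p = 0.0598 without W4 replicate 1), a difference of 1.83 (SE 0.26), and Synpo2 had a difference of 1.58 (SE 0.14). In the other direction, Col18a1 fell in Pc, to 6.34 and 10.3 CPM, and was at 82.7 and 121.6 CPM in VSM at W4, a difference of -3.90 (SE 0.18, edgeR adjusted p = 6.37e-06). Higd1b, a mitochondrial protein used as a pericyte marker, was at 437 and 430 CPM in Pc at P0 and 413 and 506 CPM at W4, and rose in VSM from 122.3 and 176 CPM to 529 and 567 CPM. Its difference was -1.94 (SE 0.16). Its log2 fold change was -0.34 in the Pc of cluster 2 (edgeR adjusted p = 0.0084) and 0.77 in those of cluster 14 (edgeR adjusted p = 0.0111). Fn1 had a difference of -1.46 (SE 0.12). Each of these differences other than that of Angpt2, for which it was not examined, passed in all 6 fits that left out 1 library of E16.5, P0 or W4.

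Of the genes with the largest differences, Cxcl9, Cxcl10, Prkg2, Ntng1, Olfml2a and Galnt15 did not pass in each of these fits. The chemokines Cxcl9 and Cxcl10 had differences of 4.205 (SE 0.91) and 3.55 (SE 0.51), and neither passed without W4 replicate 2 (2.68 and 1.71, edgeR adjusted p = 0.251 and 0.0626). Cxcl9 did not pass without E16.5 replicate 1 or 2 either (edgeR adjusted p = 0.083 and 0.0813). Cxcl10 fell in both labels, from 561 and 919 CPM to 65.9 and 316 CPM in Pc and from 212 and 229 CPM to 5.67 and 3.24 CPM in VSM. Prkg2 (2.86, SE 0.52) did not pass without W4 replicate 2 (edgeR adjusted p = 0.0512), and Ntng1 (-3.08, SE 0.43) and Olfml2a (-2.59, SE 0.42) not without W4 replicate 1, with edgeR adjusted p of 0.0924 and 0.0918. Galnt15 (-3.00, SE 0.62) passed in 1 of 6 such fits. Fbln5 and Sfrp2 (3.96, SE 0.68, and 3.95, SE 0.71) were highest in VSM of P0 replicate 1, with 852 and 406 CPM against 116.8 and 34.4 CPM in its pair. Both passed in all 6 fits, with values of 3.01 to 6.15 and 3.24 to 6.15, lowest without W4 replicate 1 and highest without W4 replicate 2. The difference for Acta2 was -0.93 (SE 0.18) and passed in 2 of 6 such fits.

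**Figure D4:**
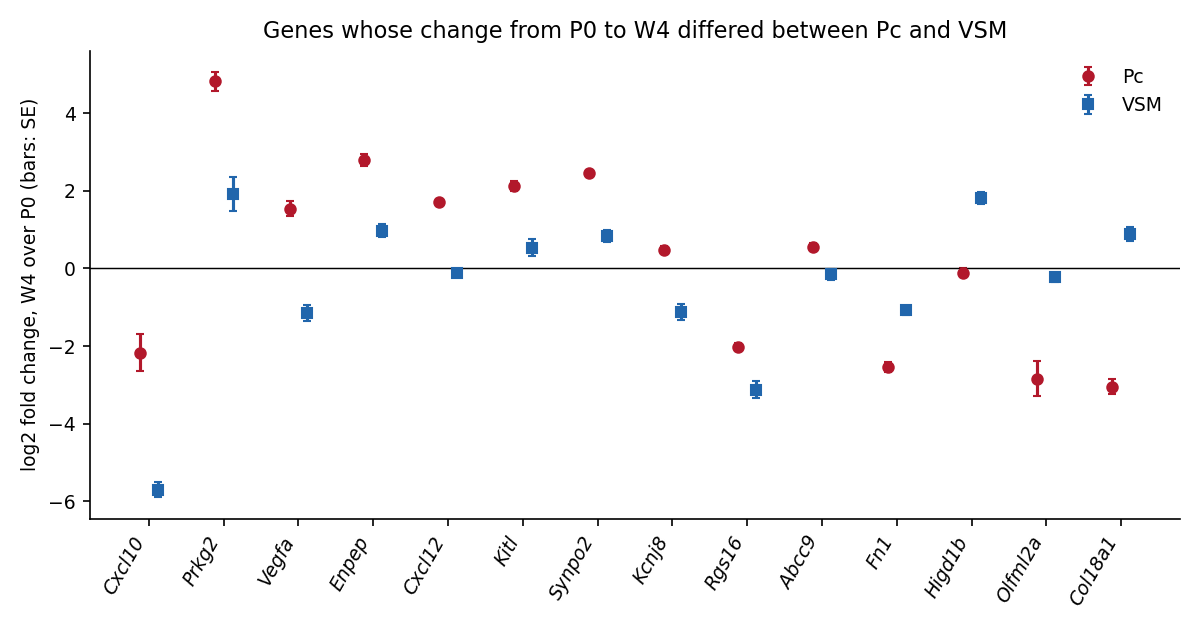
Log2 fold change from P0 to W4 in Pc (red circles) and VSM (blue squares), with bars of 1 SE, for 14 genes whose difference between the labels passed the test, ordered by the difference. Kcnj8 and Vegfa lie above 0 in Pc and below 0 in VSM, and Col18a1 lies below 0 in Pc and above 0 in VSM.

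The lists were then counted for this difference. Kcnj8, Abcc9 and contractile genes set the labels apart, so the counts that hold them are a description. Beside the 1.43% of all genes that were higher and the 2.99% that were lower, of 14 contractile genes the difference passed for 6, with 5 lower in Pc, of 12 channel genes for Kcnj8, Abcc9 and Cacna1c, all higher in Pc, and of 9 nitric oxide and cGMP genes, without Prkg2, for 4, all lower in Pc. Cacna1c did not pass in any fit that left out 1 library of E16.5, P0 or W4 (edgeR adjusted p of 0.0709 to 0.187). Of 15 interferon and class I genes 4 were higher and 2 lower, and of 12 imprinted genes 1 was higher and 3 lower. None of 12 cell cycle genes passed. Of the 12 dissociation stress genes 9 passed, all lower in Pc, and their part in the other differences was not tested.

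The sorted Ly51+gp38- cells allowed the change from P0 to W4 to be measured in separate libraries, with 6793831 to 15852166 reads in genes each. As the gate holds pericytes and smooth muscle, fewer cells of a type and less RNA per cell cannot be told apart in them. Of 11949 genes 1421 passed (11.9%), 770 higher at W4 (6.44%) and 651 lower (5.45%). With the title prefix as a term 1412 passed. Of the genes that rose in Pc and were tested in bulk, 1317 of 1747 (75.4%) went up there too, 364 passed in that direction and 16 in the opposite one, while 46.9% of all genes in both tables went up. Of those that fell in Pc, 1494 of 1938 (77.1%) went down, 377 passed and 57 passed in the opposite direction, beside 53.1% of all genes.

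Individual genes were read with their lowest, median and highest library. Ephx3 was at 15.2, 37.6 and 78.2 CPM at P0 and at 1100, 1337 and 1542 CPM at W4 (log2 fold change 5.08, SE 0.34, edgeR adjusted p = 1.2e-06). Dlk1 went from 1093, 1200 and 1492 CPM to 21.9, 27.9 and 54.1 CPM, and Fbn2 from 334, 473 and 576 CPM to 0.176, 8.07 and 18.97 CPM. None of these groups overlap. C3 rose from 5.37, 15.5 and 20.5 CPM to 196, 262 and 466 CPM, Cxcl12 from 81.01, 130.9 and 178 CPM to 352, 476 and 748 CPM, and Enpp2 from 442, 552 and 743 CPM to 2376, 2800 and 3313 CPM. Ccl19 rose from 0.586, 1.52 and 5.84 CPM to 265, 305 and 527 CPM. Lepr and Prkg2, which had no read in 3 and 2 of the P0 libraries, reached medians of 54.3 and 90.3 CPM.

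Of the 3 markers of Pc, Kcnj8 and Abcc9 fell in bulk and Rgs5 rose. Kcnj8 fell from 1136, 1922 and 2109 CPM to 573, 995 and 1326 CPM, with overlapping groups (log2 fold change -0.72, SE 0.20, edgeR adjusted p = 0.0272). Abcc9 fell from 883, 1140 and 1382 CPM to 364, 445 and 538 CPM (log2 fold change -1.20, SE 0.14, edgeR adjusted p = 6.36e-05). At W4 the libraries with title prefix DFCK held 1088, 1326 and 1159 CPM of Kcnj8 and those with TXCK 903, 573 and 776 CPM. For Abcc9 they held 538, 494 and 510 CPM and 396, 364 and 379 CPM. At P0 the prefixes overlapped for both genes. Rgs5 rose from 26789, 32355 and 37279 CPM to 81871, 92808 and 106380 CPM, and Acta2 from 830, 1206 and 1837 CPM to 3736, 4484 and 5195 CPM. The smooth muscle markers moved with this: 12 of 14 contractile genes rose in bulk and 1 fell, and of 5 smooth muscle markers 4 rose and 1 fell. Of 12 imprinted genes 10 fell there and none rose. Of 5 tested epithelial markers 4 rose, beside Ccl19, and of 8 tested thymocyte markers 2 rose, with a median log2 fold change of 4.34. The part of these cells was not tested. The part of the ratio of Pc to VSM in the sorted cells was not tested.

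**Figure D5:**
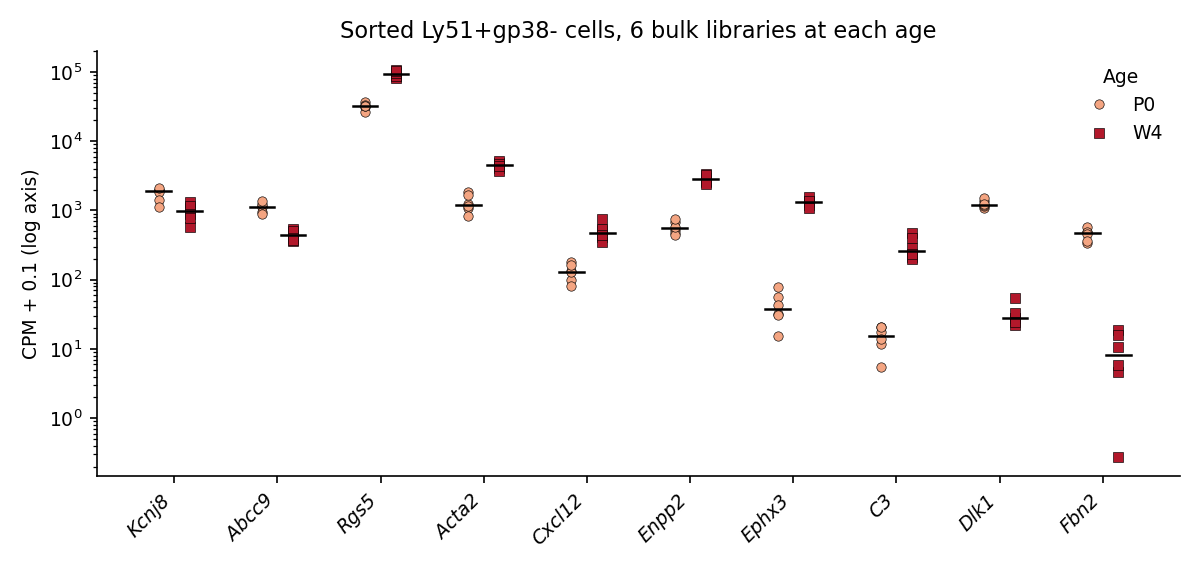
CPM + 0.1 on a log axis in 12 bulk libraries of sorted Ly51+gp38- cells, 6 at P0 (orange circles) and 6 at W4 (red squares), with black bars at the medians. Kcnj8 and Abcc9 are lower at W4, Rgs5, Acta2, Cxcl12, Enpp2, Ephx3 and C3 higher, and Dlk1 and Fbn2 lower.

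The newborn set compared Tbx1+/-Crkl+/- with wild-type thymi. Pc made up 20.7, 23.1 and 22.0% of nonepithelial cells in the mutants and 22.4, 27.0 and 20.04% in the wild types, so that the groups overlapped. The paper reported fewer Pc and VSM, in relative terms, in the mutants, with Fisher tests over cells. Here the share was not tested between genotypes. Pc per VSM cell numbered 4.09, 4.24 and 2.84 in the mutants and 2.75, 2.95 and 2.58 in the wild types, also with overlap. Kcnj8 in Pc was at 936, 879 and 1091 CPM in the wild types and at 882, 921 and 623 CPM in the mutants (edgeR adjusted p = 0.971), Abcc9 at 660, 618 and 402 CPM against 636, 572 and 440 CPM (edgeR adjusted p = 0.991), and Rgs5 at 1569, 2187 and 2063 CPM against 1719, 1486 and 1429 CPM (edgeR adjusted p = 0.970). The groups overlap for all of these. Of 10003 genes 8 passed (0.08%), all higher in the mutants, and 553 had an unadjusted p under 0.05. Zbtb16, a transcription factor of the glucocorticoid response list, was at 121, 70.4 and 66.8 CPM in the mutants and at 21.0, 10.3 and 22.5 CPM in the wild types (log2 fold change 2.12, SE 0.29, edgeR adjusted p = 0.000397), and passed in all fits that left out 1 library. It was the only gene of the 20 pathway lists to pass. Hbb-bs was at 32.8, 150.2 and 190.0 CPM against 12.02, 37.3 and 22.8 CPM (log2 fold change 2.37, SE 0.36). With it passed Hba-a1, Hba-a2 and Hbb-bt, 4 of 4 tested erythroid markers. With DESeq2 neither Hbb-bs (adjusted p = 0.597) nor Hba-a1 (adjusted p = 0.99991) passed. The sodium channel Scn3a was at 94.4, 73.5 and 63.0 CPM against 35.1, 35.4 and 25.9 CPM, and Prss16, a protease of cortical thymic epithelium, at 149.7, 244.6 and 174.0 CPM against 62.1, 97.1 and 85.6 CPM. Of the 6 fits that left out 1 library, Scn3a passed in 1 (edgeR adjusted p of up to 0.122), Prss16 in 3 (up to 0.164, without wild-type replicate 1) and Hba-a1 in 4 (up to 0.140, without mutant replicate 2). The epithelial markers, of which 7 were tested in this sort without an EpCAM gate, had a median log2 fold change of 0.81 with none passing. The part of RNA from red cells and epithelium was not tested. The eighth gene was Car3, a carbonic anhydrase (log2 fold change 3.12, SE 0.53).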

How the data were processed

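Single-cell UMI counts per gene and cell and the cell annotation were used as deposited by the authors. Per the labels' processing notes, Cell Ranger 3.1.0, STAR 2.5.3a, HTSeq and the builds mm10 and GRCh38 were used. The authors kept cells with a minimum of detected genes and a limit on mitochondrial UMIs, removed doublets and clusters of other cells, integrated the libraries and clustered at a resolution of 0.8. The lowest gene number in newborn Pc, 899, lies under the minimum stated in the methods, so that set may have been filtered otherwise. Bulk read counts per gene were deposited by the authors, and 10.4 to 14.4% of reads lay in entries of no gene, which were left out. Strand use in counting is not given in the sources used here, so overlapping and antisense genes are uncertain, as are near-identical copies such as the globins.

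UMIs were summed per library and label and scaled to CPM. Tests used edgeR 4.0.16 (R 4.3.3) with TMM, filterByExpr, the quasi-likelihood fit and Benjamini-Hochberg adjustment over all genes tested, at 0.05, with all ages in 1 fit. Ages with 1 library were assumed to vary like the others. The difference between labels was an interaction with library as a block. SE is the log2 fold change divided by the root of F. The study tested cells, and here libraries were the replicates. Alternatives were DESeq2 1.42.0, other size factors, no filter, cells without UMIs of other cell types, a replicate block and, in bulk, the title prefix as a term. Each library of E16.5, P0, W4 and the newborn set was also left out in turn. No bulk library was left out. Scripts were tested on simulated data. Named genes were the 10 largest called rises and falls from P0 to W4 and the 5 largest of other contrasts, at 50 CPM or more in a group, besides the leading genes of Pc and genes of the lists. Some genes that these rules name are not reported here. Members, lists and tests were chosen with earlier results of these data known. Depth limits low genes, and intervals cover counting error only. Labels other than Pc and VSM were used for levels, cell shares and cell ratios only. Promoters are RefSeq on GRCm38.p6, the same assembly as mm10.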

Additional observations from a re-analysis of the deposited data

Results flagged for a closer look

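The change from P0 to W4 was compared between Pc and VSM for 59 genes named in the text, among them genes named because their difference was large. For 30 of the 59 the difference, as the log2 change in Pc minus that in VSM, passed the interaction test (edgeR quasi-likelihood test with Benjamini-Hochberg adjustment). Over all genes tested 4.42% passed, but the 59 were chosen in part by this test, so the shares do not compare. Differences in favour of Pc were 4.205 for Cxcl9, 3.964 for Fbln5, 3.951 for Sfrp2, 3.554 for Cxcl10, 2.865 for Prkg2, 2.718 for Plxdc1, 2.647 for Vegfa, 1.827 for Enpep, 1.812 for Cxcl12, 1.598 for Kitl, 1.582 for Synpo2, 1.577 for Kcnj8, 1.323 for Hspg2, 1.061 for Rgs16, 0.9419 for Ephx3, 0.8673 for H2-K1, 0.7036 for Abcc9, 0.5827 for Heyl and 0.554 for Cacna1c. Differences in favour of VSM were -3.898 for Col18a1, -3.078 for Ntng1, -2.997 for Galnt15, -2.586 for Olfml2a, -2.515 for Egr2, -1.943 for Higd1b, -1.457 for Fn1, -1.097 for Dlk1, -0.9261 for Acta2, -0.7583 for Cdkn1c and -0.4461 for Fos. Egr2 and Fos belong to the genes of acute stimulation, and 9 of 12 dissociation stress genes differed in the same direction. Cacna1c did not pass in any of the 6 fits that left out 1 library of E16.5, P0 or W4, Heyl and Galnt15 passed in 1, Acta2 and Fos in 2, Cdkn1c and Cxcl9 in 3, Hspg2 in 4, and Cxcl10, Prkg2, Ntng1, Olfml2a and H2-K1 in 5 (H2-K1 not without W4 replicate 1, edgeR adjusted p = 0.0596). Such fits were not examined for Plxdc1, Ephx3, Egr2 and Dlk1.

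Of 26 groups of 6 bulk Ly51+gp38- libraries examined, 4 held a library far from the others, as the gap to its neighbour divided by the range of the group passed Dixon's critical value for 6 samples. The ratio was 0.868 for Lepr at P0, 0.749 for Prkg2 at P0, 0.747 for Ccl19 at W4 and 0.663 for Dlk1 at W4. Chance flags about 1 in 20 groups. The extreme libraries held 2.20 CPM of Lepr and 11.2 CPM of Prkg2 at P0, 527 CPM of Ccl19 and 54.1 CPM of Dlk1, and none of them bridged the distance between P0 and W4.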

How the results depend on the processing

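Of 76 summary results under the alternatives listed at the start 49 stayed within their limits, 2 lost the call and 25 moved, and of 1635 gene values 1500 kept direction and side of the threshold, while 5 changed sign and the others lost or gained a call or moved. With DESeq2 the counts of genes were 5671 over ages, 1963 for W4 against P0, 754 for P0 against E16.5, 1204 in VSM, 340 for the difference between labels and 4 for the newborn genotypes. With no filter on low counts the difference passed for 1078 genes and the genotype for 48. Leaving out each library of E16.5, P0 and W4, or each newborn library, gave 2311 to 4275 genes for W4 against P0 (2311 without W4 replicate 1), 801 to 3312 for P0 against E16.5 (801 and 847 without E16.5 replicate 1 and 2), 1102 to 3692 in VSM (1102 and 1339 without W4 replicate 1 and 2), 232 to 805 for the difference (232 and 314 without W4 replicate 1 and 2, 259 and 262 without the E16.5 libraries) and 4 to 31 for the genotype. The adjusted p of the Pc share over ages ran from 0.00245 to 0.0760 (0.0744 without E16.5 replicate 2). A lone library left at an age was assumed to vary like the other groups, and the cause of these shifts was not tested.

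Replicate numbers are shared by the labels only. Same-numbered libraries correlated in their deviations at 0.108, 0.0771 and 0.0206 in the age series and at 0.236, -0.177 and -0.338 in the newborn set. The replicate block gave 258 genes for the difference in place of the library block, without Abcc9 (edgeR adjusted p = 0.0798), Fbln5 (0.208), Sfrp2 (0.612), Hspg2 (0.168), Acta2 (0.193), Cxcl10 (0.0514), Ntng1 (0.0573), Galnt15 (0.0692), H2-K1 (0.0606), Cacna1c (0.463), Heyl (0.0545), Cdkn1c (0.215) and Fos (0.0971), and 25 for the genotype, and left the other counts within 1.5 times, with an adjusted p of 0.0287 for the share. Alternatives added after seeing the data took cluster 14 alone, with 4970 genes over ages, 1658 for W4 against P0 and 685 for P0 against E16.5, cluster 2 alone, and E16.5, P0 and W4 alone. Values that changed sign were Higd1b (W4 over P0 from -0.27 to 0.048 when a W4 library was left out, 0.77 in cluster 14), Acta2 (0.25 in cluster 2; in VSM from -0.35 to 0.024 when a P0 library was left out), Colec11 (0.075 in cluster 14) and, for P0 over E16.5 in cluster 14, Kcnj8 (-0.29) and Abcc9 (-0.14). Newborn Abcc9 ran from -0.21 to 0.10, with 0.077 and 0.015 without wild-type replicate 1 and 2. Pc held 1184337 UMIs or more in each library of the age series and 487537 or more in each newborn library, which limits genes at a few CPM.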
